A study of Saccharomyces cerevisiae with 15 samples.

Results

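The genes described here are 54 yeast genes of amino acid synthesis: GCN4, the transcriptional activator of the general amino acid control, and enzymes of 9 branches. A gene was taken when the array's annotation gave its name as the only symbol of a probe set, and all 54 were found among 5656 genes with such a probe set on an array of 9335 probe sets. HIS3 had 2 such probe sets, and the one with the higher mean signal stood for it. The arrays measured total RNA of one Saccharomyces cerevisiae strain, labelled as a PMI40 deletion of the parent CEN.PK113-7A. PMI40 encodes phosphomannose isomerase, which converts fructose 6-phosphate and mannose 6-phosphate into each other. The strain grew in aerated batches of mineral medium that held 15 g/L glucose in every group, with 0.75, 1, 1.5, 3 or 5 g/L mannose at the start. Sampling was at 6 h, and each concentration had 3 arrays, 15 in all. No parent strain was analysed here, so the comparisons are between mannose concentrations, and say nothing of the deletion itself. Nothing in the labels ties the 3 arrays of a concentration to 3 cultures, so the p-values describe only the spread from array to array, which may be technical.

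Yeast makes its amino acids from a few intermediates of central metabolism, with one set of enzymes for each branch and with shared entry steps for the aromatic and the branched-chain families. Gcn4 activates genes in most of these branches. Its synthesis is controlled mainly at translation, through upstream reading frames in its own mRNA and the kinase Gcn2, so a GCN4 mRNA level is not a measure of Gcn4 protein. Branch regulators such as Leu3, Lys14 and the ArgR complex act beside it.

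Some features of the arrays bear on every comparison. The PMI40 probe set read between 113 and 270 on all 15 arrays, against a background level of 13.5 from control probe sets, and the position of its probes relative to the deletion was not examined. Median signals ranged from 20.1 to 22.1 for 0.75 g/L and from 23.3 to 27.0 for the 12 arrays with more mannose. The ratio of the 3′ to the 5′ control signal of ACT1 was 1.37 to 2.36. For SPT15 this ratio ranged from 2.81 to 6.90, from 4.19 to 5.26 in 0.75 g/L and from 4.44 to 6.90 in 5 g/L. The arrays were divided here into an earlier and a later session. Each combination of session and fluidics station was then taken as a run, so the runs are inferred. Results below with session or run as a block rest on this division. Run A held the 0.75 g/L arrays and 3 g/L replicate 1, run B replicates 2 and 3 at 3 g/L with replicates 1 and 2 at 5 g/L, run C the 1.5 g/L arrays with 5 g/L replicate 3, and run D the 1 g/L arrays alone. For run A and for 5 g/L replicate 2 the wash and stain record ended before completion. Their part in the results below was not tested beyond the values given.

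Most of the 54 genes had more signal at more mannose. In the trend, a slope of log2 signal per doubling of initial mannose fitted with limma, 32 of 54 members rose and 0 fell at an adjusted p below 0.05. Over all 6956 probe sets tested, 23.7% passed, 14.3% higher and 9.34% lower. The median slope of the members was 0.24, against 0.02 over all probe sets, and 49 of the 54 slopes were positive. Among the 22 members that did not pass were all of the glutamate and glutamine enzymes, GLN1, GDH1 and GLT1. With fluidics run as a fixed block, 16 members passed, 15 higher and PRO3 lower, while the median slope was 0.25. How many of all probe sets passed under this block, or under the session and station blocks below, is not given here. Whether the lower counts under these blocks are particular to these genes was not tested. Median scaling of the arrays turned the split of all calls from 60.5% higher to 34.1% higher (592 higher and 1143 lower). There 23 members rose and PRO3 fell, with 46 positive slopes.

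The median deviation of the 54 genes from their own means was -0.31, -0.34 and -0.37 (log2) on the 0.75 g/L arrays and -0.16, -0.13 and -0.14 in 1 g/L. It was -0.01, 0.03 and -0.05 in 1.5 g/L, 0.26, 0.23 and 0.29 in 3 g/L, and 0.30, 0.19 and 0.33 in 5 g/L. The groups at 0.75, 1 and 1.5 g/L did not overlap with each other or with the higher ones, and those at 3 and 5 g/L overlapped. The median deviation of all probe sets was -0.09, -0.06 and -0.05 on the 0.75 g/L arrays and 0.06, 0.10 and 0.05 on the 1 g/L arrays. Relative to it the members stood at -0.22, -0.27 and -0.32 for 0.75 g/L and at -0.22, -0.24 and -0.20 for 1 g/L, so that these groups overlapped and their separation depended on the scaling. On that relative scale the members stood at -0.08, 0.00 and -0.08 for 1.5 g/L and at 0.07 to 0.33 for the 3 and 5 g/L arrays, which still lay above all others. Before all probe sets were taken as reference, the 3 g/L array of run A (0.26) lay between those of run B (0.23 and 0.29). Relative to all probe sets it stood at 0.30, above those of run B (0.21 and 0.22). The mean was lowest at 0.75 g/L for 35 members and at 1 g/L for 12, and highest at 3 g/L for 19 and at 5 g/L for 22.

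**Figure D1:**
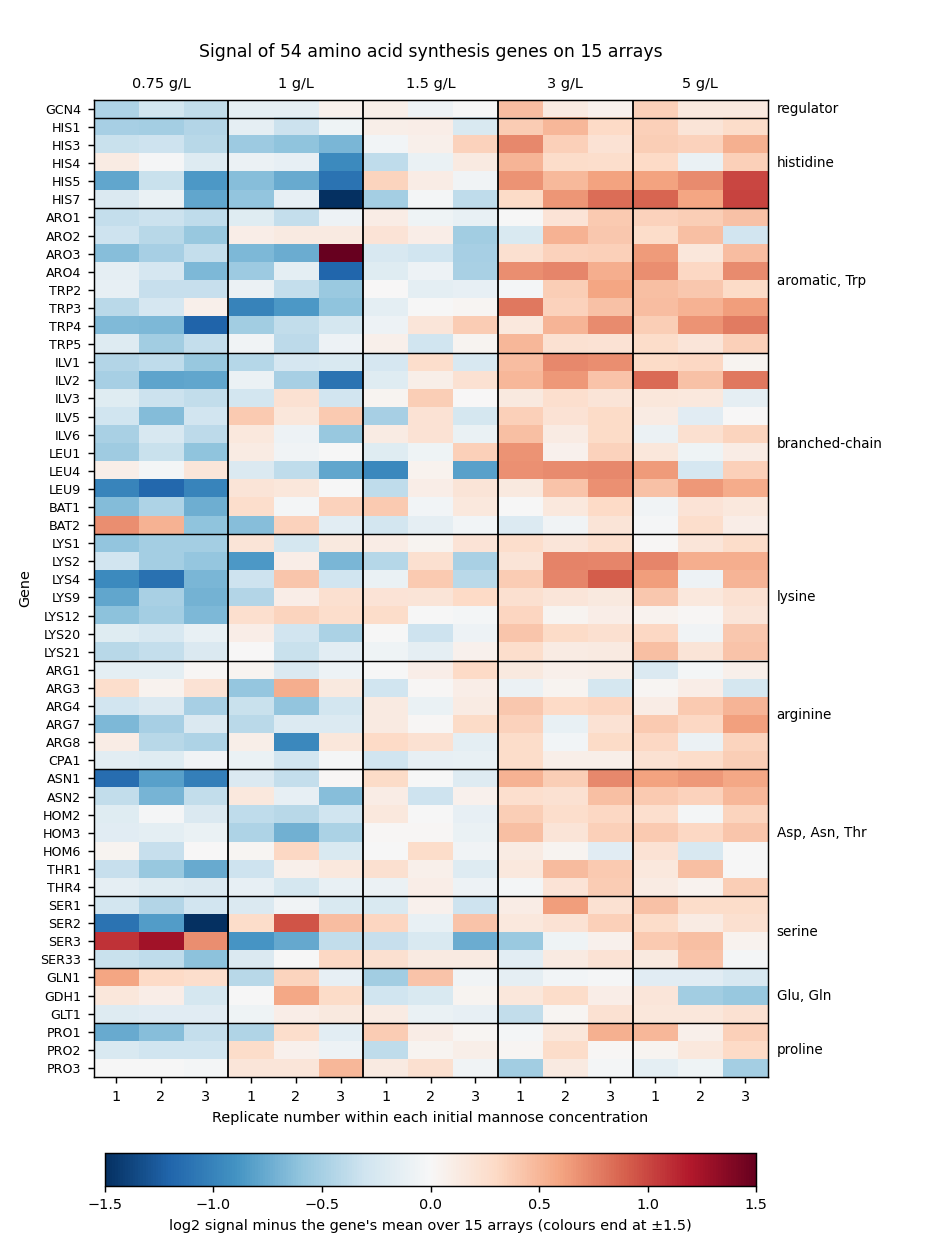
Signal of the 54 genes (rows, by branch) on the 15 arrays (columns, 3 for each initial mannose concentration), as log2 signal minus the gene's mean over the arrays. Blue cells prevail at 0.75 and 1 g/L and red cells at 3 and 5 g/L, and SER3 runs the other way at 0.75 g/L.

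GCN4 itself rose, with a slope below the median of the members. Its probe set read 1323, 1511 and 1416 in 0.75 g/L, 1667, 1662 and 1904 in 1 g/L, 1946, 1738 and 1821 in 1.5 g/L, 2511, 2010 and 1908 in 3 g/L, and 2334, 2032 and 2031 in 5 g/L. The 0.75 g/L arrays lay below all others, and the 3 and 5 g/L arrays overlapped. GCN4 mRNA rose with a slope of 0.20 ± 0.05 per doubling (SE, adjusted p = 0.0137) and was 1.50-fold higher at 5 than at 0.75 g/L (adjusted p = 0.00549). It did not pass in any step between neighbouring concentrations, nor at 5 against 1 g/L (log2 difference 0.29 ± 0.14, adjusted p = 0.164). Its slope missed the threshold without the 0.75 g/L arrays (0.14, adjusted p = 0.104), without the arrays with incomplete fluidics records (0.13, adjusted p = 0.117) and after median scaling (0.12, adjusted p = 0.0928). Within run A, 3 g/L replicate 1 exceeded the 0.75 g/L arrays by 0.83 ± 0.19 (log2, adjusted p = 0.00687), a lone array taken to vary like the rest.

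Histidine synthesis showed the largest median slope of the branches, 0.37, and 4 of its 5 members rose: HIS1, HIS3, HIS5 and HIS7. HIS5, the histidinol-phosphate aminotransferase, read 144, 197 and 137 in 0.75 g/L, 159, 147 and 115 in 1 g/L, 313, 267 and 239 in 1.5 g/L, 396, 347 and 377 in 3 g/L, and 375, 406 and 495 in 5 g/L. Its 0.75 and 1 g/L arrays overlapped, and every array at 1.5 g/L and above exceeded both groups. The slope of HIS5 was 0.60 ± 0.08 (adjusted p = 6.41e-05), and its level in 5 g/L was 3.04-fold that in 1 g/L (adjusted p = 3.28e-05).

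HIS7, the imidazole glycerol phosphate synthase, read 272, 296 and 185 in 0.75 g/L, 209, 290 and 109 in 1 g/L, 221, 310 and 242 in 1.5 g/L, 386, 501 and 563 in 3 g/L, and 580, 477 and 640 in 5 g/L. The lower 3 groups overlapped with each other, and all arrays at 3 and 5 g/L lay above them. Its slope was 0.56 ± 0.11 (adjusted p = 0.00145) and missed the threshold with the run as a block (0.46, adjusted p = 0.0808). HIS3, the imidazoleglycerol-phosphate dehydratase, averaged 1436 ± 54.3 (SD) at 0.75 g/L, 1201 ± 56.8 in 1 g/L and 2455 ± 185 in 5 g/L, and its second probe set had a slope of 0.51 against 0.37 for the first. HIS1, the ATP phosphoribosyltransferase that opens the branch, rose from 905 ± 22.7 to 1534 ± 88.3 between the end concentrations. HIS4, a trifunctional enzyme of early and last steps, had a positive slope that did not pass (0.18 ± 0.08, adjusted p = 0.115). At 1 g/L, 4 of the 5 histidine genes had lower means than at 0.75 g/L, with a median log2 difference of -0.26 over the branch, and none of the probe sets that stood for them passed. The second probe set of HIS3 did, at -0.52 ± 0.15 (adjusted p = 0.0132).

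In the aromatic and tryptophan branch, 6 of 8 members rose, with a median slope of 0.29. TRP4, the anthranilate phosphoribosyltransferase, read 137, 136 and 94.3 in 0.75 g/L, 151, 168 and 181 in 1 g/L, 206, 246 and 282 in 1.5 g/L, 241, 310 and 354 in 3 g/L, and 280, 345 and 373 in 5 g/L. Its 3 lowest groups were in order without overlap, and the higher ones overlapped. TRP4 rose with a slope of 0.51 ± 0.08 (adjusted p = 0.000199) and was 2.74-fold higher at 5 than at 0.75 g/L. ARO1, the pentafunctional enzyme of the shikimate pathway, read 816, 836 and 800 in 0.75 g/L, 919, 815 and 987 in 1 g/L, 1126, 998 and 963 in 1.5 g/L, 1038, 1202 and 1367 in 3 g/L, and 1325, 1349 and 1411 in 5 g/L. Its climb was gradual, with overlap between neighbours and none between the end groups, and the slope was 0.26 ± 0.05 (adjusted p = 0.00109).

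The first step of the aromatic pathway is made by the paralogs ARO3 and ARO4, whose enzymes are inhibited by phenylalanine and by tyrosine. ARO4 read 533, 491 and 367 in 0.75 g/L, 400, 527 and 257 in 1 g/L, 517, 554 and 419 in 1.5 g/L, 953, 972 and 857 in 3 g/L, and 948, 729 and 958 in 5 g/L. All its arrays at 3 and 5 g/L lay above all others, the slope was 0.47 ± 0.09 (adjusted p = 0.00159), and the step from 1.5 to 3 g/L passed (0.91 ± 0.24, adjusted p = 0.0486), a call lost without any of 12 of the arrays. ARO3 read 127, 139 and 155 in 0.75 g/L, 124, 118 and 645 in 1 g/L, 168, 161 and 140 in 1.5 g/L, 234, 252 and 254 in 3 g/L, and 307, 223 and 272 in 5 g/L. One array, 1 g/L replicate 3, lay far above every other. With it the slope of ARO3 was 0.29 ± 0.14 (adjusted p = 0.145), and without it 0.41 (adjusted p = 0.000326). On the same array HIS7 (109), ARO4 (257), ILV2 (407) and HIS4 (1127) had their lowest signals of all 15 arrays.

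Of the other aromatic and tryptophan genes, TRP2 and TRP3, both of the anthranilate synthase complex, and TRP5, the tryptophan synthase, rose with slopes of 0.28, 0.42 and 0.24. Between 0.75 and 1 g/L the differences of TRP3, ARO4 and TRP2 were negative, and that of TRP3 passed. TRP3 fell from 182 ± 31.7 to 118 ± 16.4 (adjusted p = 0.0109, and 0.0547 without 0.75 g/L replicate 3), before it reached 300 ± 18.5 at 5 g/L. ARO2, the chorismate synthase, did not pass (slope 0.17 ± 0.08, adjusted p = 0.161).

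The branched-chain genes were mixed. The trend was passed by 4 of 10 members, ILV1, ILV2, ILV6 and LEU9, with a median slope of 0.20, while 7 of 10 passed the F-test for any difference among the concentrations. That F-test was passed by 38 of all 54 members and by 46.6% of all probe sets. ILV2, the catalytic subunit of acetolactate synthase, read 621, 506 and 510 in 0.75 g/L, 823, 622 and 407 in 1 g/L, 774, 933 and 1031 in 1.5 g/L, 1239, 1378 and 1179 in 3 g/L, and 1576, 1186 and 1516 in 5 g/L. The lower groups overlapped with their neighbours, the 3 and 5 g/L arrays lay above all others, and the slope was 0.54 ± 0.08 (adjusted p = 0.000109). ILV6, the regulatory subunit of the same enzyme, had a slope of 0.20 ± 0.07 (adjusted p = 0.0385), which missed the threshold under 16 of 33 alternatives. ILV1, the threonine deaminase, rose by 0.32 ± 0.07 per doubling.

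LEU4 and LEU9 both encode isopropylmalate synthases, the entry to leucine. LEU9 read 35, 30.7 and 35 in 0.75 g/L, 79.3, 78.3 and 69.2 in 1 g/L, 53.2, 74.2 and 79.2 in 1.5 g/L, 77.1, 93.8 and 112 in 3 g/L, and 94.0, 109 and 103 in 5 g/L. The 0.75 g/L arrays stood alone below the others, and the step to 1 g/L was 2.25-fold (adjusted p = 0.000152). Its slope of 0.46 ± 0.10 (adjusted p = 0.00294) was 0.23 (adjusted p = 0.0771) without the arrays with incomplete fluidics records. LEU4 read 1498, 1380 and 1587 in 0.75 g/L, 1205, 1077 and 817 in 1 g/L, 720, 1454 and 798 in 1.5 g/L, 2252, 2298 and 2319 in 3 g/L, and 2194, 1175 and 1801 in 5 g/L. It was lower at 1 than at 0.75 g/L without overlap, though that difference did not pass (-0.54 ± 0.27, adjusted p = 0.126), and the step from 1.5 to 3 g/L passed at 1.28 ± 0.27 (adjusted p = 0.0174, and 0.0514 to 0.0738 without replicate 1 or 3 at 1.5 g/L or replicate 2 or 3 at 3 g/L).

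BAT1 and BAT2 encode the mitochondrial and the cytosolic branched-chain aminotransferase. BAT1 read 414, 472 and 392 in 0.75 g/L, 779, 636 and 824 in 1 g/L, 855, 631 and 723 in 1.5 g/L, 647, 727 and 797 in 3 g/L, and 629, 751 and 723 in 5 g/L. Its only passing step was from 0.75 to 1 g/L (0.80 ± 0.16, adjusted p = 0.00148), and the 4 higher groups overlapped throughout. BAT2 read 83.2, 73.7 and 33.9 in 0.75 g/L, 33.0, 65.5 and 46.1 in 1 g/L, 42.7, 47.0 and 50 in 1.5 g/L, 44.8, 49.8 and 59.1 in 3 g/L, and 50.8, 61.9 and 55.3 in 5 g/L. All its groups overlapped with the 0.75 g/L arrays, and its slope was 0.01 ± 0.10. Without 0.75 g/L replicate 3 it was lower at 1 than at 0.75 g/L (-0.76, adjusted p = 0.0305). Similar to BAT1, ILV5, the acetohydroxyacid reductoisomerase, and LEU1, the isopropylmalate isomerase, were higher at 1 than at 0.75 g/L (0.73 and 0.51) but had no passing trend. ILV3, the dihydroxyacid dehydratase, passed no comparison.

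**Figure D2:**
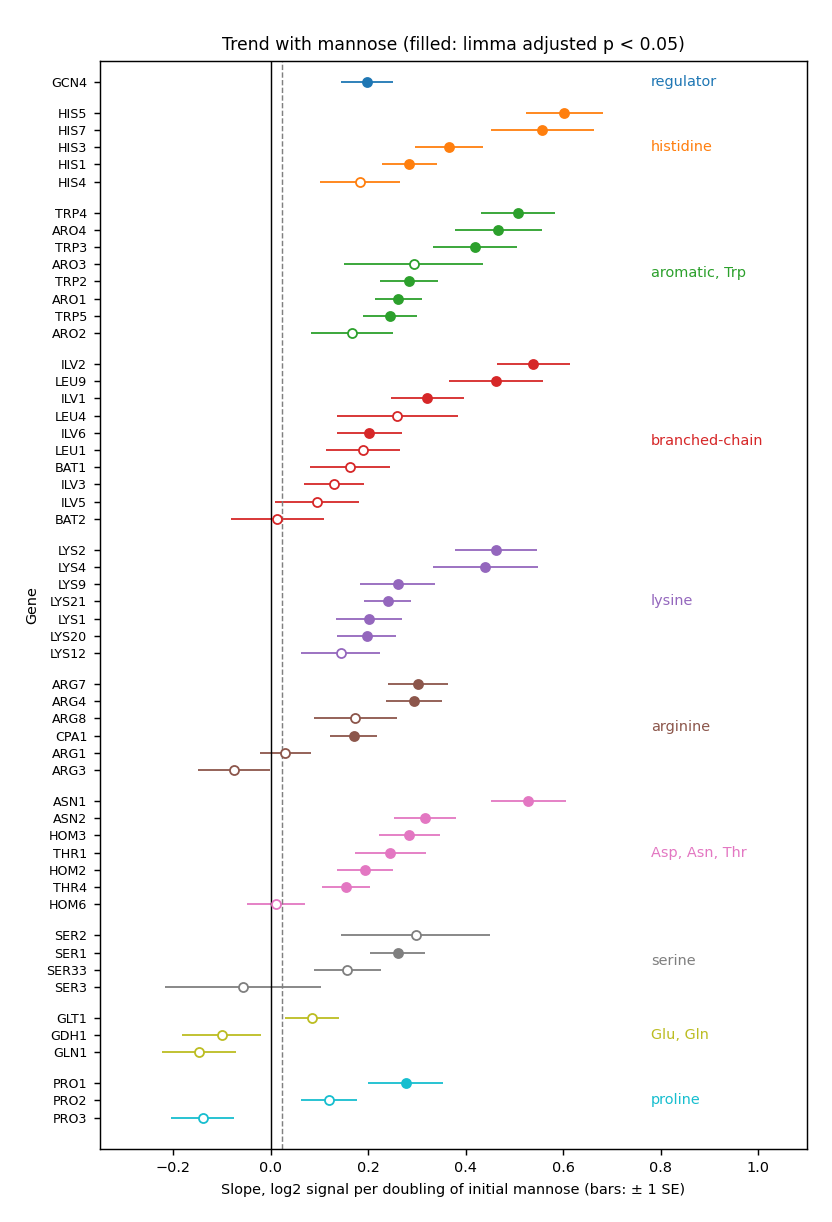
Slope of log2 signal per doubling of initial mannose for each gene, by branch, with 1 SE on either side. Filled points passed at an adjusted p below 0.05, and the dashed line marks the median of all probe sets, 0.02. The slopes run from -0.15 for GLN1 to 0.60 for HIS5.

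All 7 lysine genes passed the F-test and 6 rose in the trend, with a median slope of 0.24. LYS2, the alpha-aminoadipate reductase, read 357, 306 and 291 in 0.75 g/L, 239, 465 and 270 in 1 g/L, 323, 512 and 310 in 1.5 g/L, 498, 728 and 725 in 3 g/L, and 723, 634 and 636 in 5 g/L. The 3 lower groups overlapped, and only the highest array at 1.5 g/L exceeded the lowest at 3 g/L. The slope was 0.46 ± 0.08 (adjusted p = 0.00103). LYS4 (homoaconitase), LYS9 (saccharopine reductase) and LYS1 (saccharopine dehydrogenase) had passing trends of 0.44, 0.26 and 0.20, the last lost under 16 of 33 alternatives. These 3 genes and LYS12, the homoisocitrate dehydrogenase, were also higher at 1 than at 0.75 g/L. LYS12 averaged 460 ± 26.6 at 0.75 g/L, 850 ± 26.8 in 1 g/L and 739 ± 44.0 in 5 g/L, and its trend did not pass (0.14 ± 0.08, adjusted p = 0.212).

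LYS20 and LYS21 encode homocitrate synthases, the entry to lysine. LYS20 read 2757, 2648 and 2906 in 0.75 g/L, 3372, 2563 and 2249 in 1 g/L, 3124, 2533 and 2974 in 1.5 g/L, 4200, 3842 and 3692 in 3 g/L, and 3877, 3016 and 4143 in 5 g/L. LYS21 read 715, 745 and 819 in 0.75 g/L, 957, 759 and 855 in 1 g/L, 914, 865 and 995 in 1.5 g/L, 1147, 1041 and 1048 in 3 g/L, and 1308, 1094 and 1278 in 5 g/L. In both genes neighbouring groups below 3 g/L overlapped and the 3 g/L arrays lay above them all. The slopes of LYS20 and LYS21 were 0.20 ± 0.06 (adjusted p = 0.0281) and 0.24 ± 0.05 (adjusted p = 0.00212), the first lost without 5 g/L replicate 1 or 3 (adjusted p = 0.0597 and 0.0706). A further probe set named for both genes had a slope of 0.18 that did not pass, and how far the separate probe sets respond to the other gene is not given.

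Arginine genes divided evenly: ARG4, ARG7 and CPA1 rose, and ARG1, ARG3 and ARG8 did not pass in any comparison. ARG4, the argininosuccinate lyase, read 828, 866 and 715 in 0.75 g/L, 800, 670 and 830 in 1 g/L, 1111, 939 and 1098 in 1.5 g/L, 1335, 1243 and 1260 in 3 g/L, and 1093, 1323 and 1439 in 5 g/L. Its 0.75 and 1 g/L arrays overlapped and lay below all others, and the slope was 0.29 ± 0.06 (adjusted p = 0.00181). ARG7, the mitochondrial ornithine acetyltransferase, read 343, 387 and 469 in 0.75 g/L, 411, 473 and 474 in 1 g/L, 598, 553 and 664 in 1.5 g/L, 696, 505 and 634 in 3 g/L, and 719, 679 and 834 in 5 g/L. Here too the 2 lowest groups lay below every other array, with a slope of 0.30 ± 0.06 (adjusted p = 0.00226). CPA1, the small subunit of the arginine-specific carbamoyl phosphate synthetase, rose by 0.17 ± 0.05 per doubling (adjusted p = 0.0198, and 0.0586 without 5 g/L replicate 3). ARG1, the argininosuccinate synthetase that makes the substrate of ARG4's enzyme, stayed between means of 983 ± 65.8 and 1153 ± 124, with a slope of 0.03 ± 0.05 (adjusted p = 0.726). ARG3, the ornithine carbamoyltransferase, had a slope of -0.07 ± 0.07, and ARG8, the acetylornithine aminotransferase, 0.17 ± 0.09.

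Of the aspartate, asparagine and threonine genes, 6 of 7 rose, with a median slope of 0.25. ASN1, one of the asparagine synthetases, read 180, 225 and 194 in 0.75 g/L, 340, 309 and 399 in 1 g/L, 483, 395 and 344 in 1.5 g/L, 567, 509 and 653 in 3 g/L, and 598, 621 and 589 in 5 g/L. The 0.75 g/L arrays lay lowest, those at 1 and 1.5 g/L overlapped in between, and those at 3 and 5 g/L overlapped at the top. ASN1 was 3.03-fold higher at 5 than at 0.75 g/L (adjusted p = 4.25e-06), and its slope of 0.53 ± 0.08 (adjusted p = 0.000147) passed under all 33 alternatives tried. ASN2, its paralog, read 405, 322 and 404 in 0.75 g/L, 584, 477 and 336 in 1 g/L, 563, 420 and 543 in 1.5 g/L, 620, 612 and 712 in 3 g/L, and 682, 660 and 734 in 5 g/L. Its lower 3 groups overlapped, the upper ones lay above them, and the slope was 0.32 ± 0.06 (adjusted p = 0.00233).

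HOM3, the aspartate kinase that opens the threonine and methionine route, averaged 364 ± 9.4 at 0.75 g/L, fell to 274 ± 26.7 at 1 g/L (adjusted p = 0.0223) and stood at 520 ± 19.9 at 5 g/L. That fall missed the threshold without any single 0.75 g/L array (adjusted p = 0.0509, 0.0524 and 0.0642) and without 1 g/L replicate 2 (0.0913). HOM2, the aspartic semialdehyde dehydrogenase, rose in the trend by 0.19 ± 0.06 (adjusted p = 0.0239, and 0.0553 without 5 g/L replicate 3). THR1, the homoserine kinase, and THR4, the threonine synthase, rose by 0.25 ± 0.07 and 0.15 ± 0.05, and lost the call under 9 and 14 of 33 alternatives. HOM6, the homoserine dehydrogenase between HOM2 and THR1, averaged 1424 ± 201 to 1596 ± 206 in the 5 groups and had a slope of 0.01 ± 0.06.

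**Figure D3:**
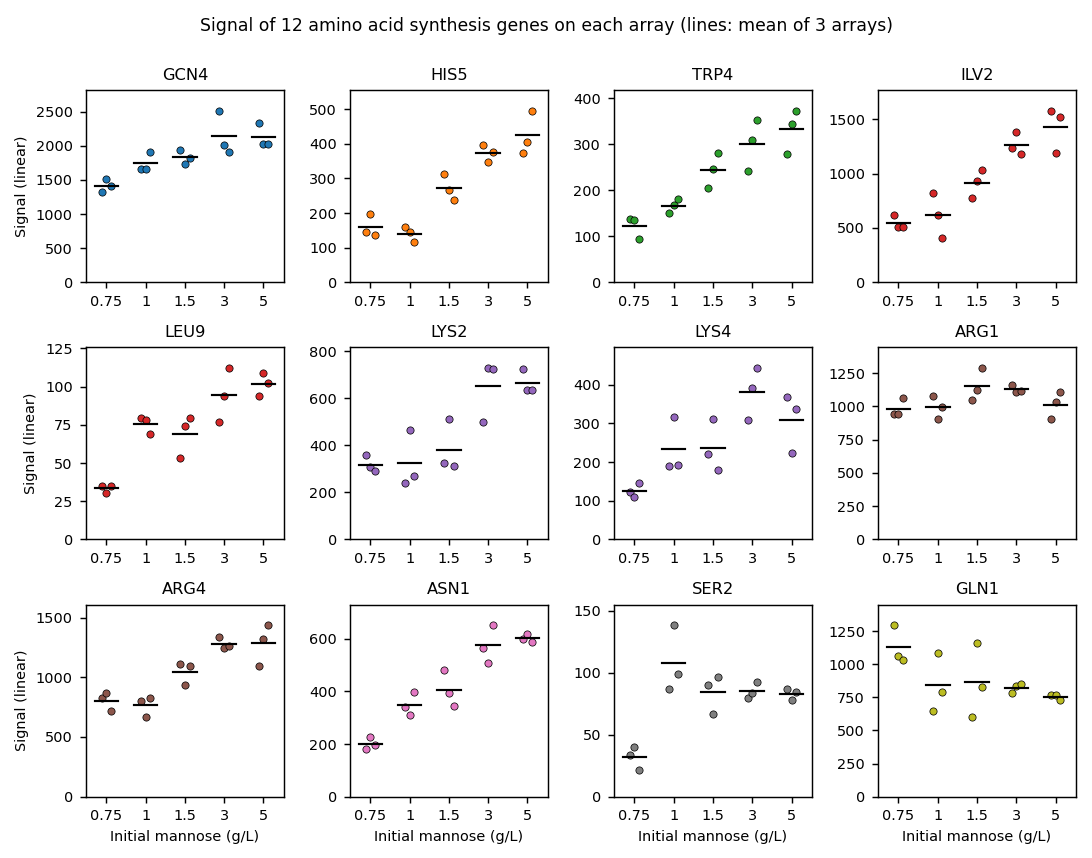
Linear signal of 12 of the genes on each of the 15 arrays, with the mean of each group of 3 as a line. HIS5 is higher above 1 g/L, SER2 and LEU9 are higher at 1 than at 0.75 g/L, and the group means of ARG1 lie between 983 and 1153.

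Of the 4 serine genes, SER2 and SER33 were higher and SER3 was lower at 1 than at 0.75 g/L, and SER1 did not pass there. SER3 and SER33 encode phosphoglycerate dehydrogenases, which catalyse the same first step. SER3 read 262, 298 and 201 in 0.75 g/L, 67.1, 72.8 and 95.9 in 1 g/L, 97.7, 106 and 74.1 in 1.5 g/L, 84.2, 119 and 129 in 3 g/L, and 163, 170 and 128 in 5 g/L. The 0.75 g/L arrays lay above all others, and the 5 g/L arrays lay above those at 1 and 1.5 g/L. SER3 was 3.22-fold lower at 1 than at 0.75 g/L (adjusted p = 4.09e-05) and then 1.96-fold higher at 5 than at 1 g/L (adjusted p = 0.00589), which left no passing trend over all arrays (-0.06 ± 0.16). Without the 0.75 g/L arrays its slope was 0.40 (adjusted p = 0.00334).

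SER33 read 181, 174 and 148 in 0.75 g/L, 196, 226 and 281 in 1 g/L, 267, 250 and 249 in 1.5 g/L, 203, 248 and 263 in 3 g/L, and 251, 305 and 223 in 5 g/L. Its 0.75 g/L arrays lay below all others, which overlapped, and the step to 1 g/L was 1.39-fold (adjusted p = 0.0463), which no longer passed without any of 10 of the arrays. SER2, the phosphoserine phosphatase that ends the pathway, read 21.4 to 40.1 in 0.75 g/L, 87.1 to 138 in 1 g/L and 66.7 to 96.6 on the arrays at higher mannose. That step of 3.47-fold (adjusted p = 3.63e-05) was the largest of any member between neighbouring concentrations. SER1, the phosphoserine aminotransferase, was the one serine gene with a passing trend. It read 265, 238 and 264 in 0.75 g/L, 278, 311 and 276 in 1 g/L, 276, 337 and 259 in 1.5 g/L, 349, 498 and 377 in 3 g/L, and 437, 390 and 390 in 5 g/L. The 1.5 g/L arrays overlapped with both lower groups, the 3 and 5 g/L arrays lay above all of these, and the slope was 0.26 ± 0.06 (adjusted p = 0.00366).

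With all arrays and no rescaling, none of the 3 glutamate and glutamine enzymes passed in any comparison. GLN1, the glutamine synthetase, read 1298, 1063 and 1033 in 0.75 g/L, 650, 1087 and 790 in 1 g/L, 603, 1162 and 832 in 1.5 g/L, 785, 838 and 851 in 3 g/L, and 766, 768 and 729 in 5 g/L. Single arrays at 1 and 1.5 g/L reached the 0.75 g/L level, whereas those at 3 and 5 g/L lay below it, and the slope was -0.15 ± 0.08 (adjusted p = 0.174). The difference of GLN1 between 5 and 0.75 g/L, -0.58 (adjusted p = 0.0619), passed without 1 g/L replicate 2 (adjusted p = 0.044) or without replicate 1 or 2 at 1.5 g/L (0.0345 and 0.0339). GLT1, the glutamate synthase, read 364, 367 and 368 in 0.75 g/L, 398, 443 and 457 in 1 g/L, 452, 386 and 380 in 1.5 g/L, 321, 424 and 484 in 3 g/L, and 467, 464 and 486 in 5 g/L. The 5 g/L arrays lay above those at 0.75, 1 and 1.5 g/L, and the slope was 0.08 ± 0.06. GDH1, the NADP-dependent glutamate dehydrogenase, had a slope of -0.10 ± 0.08, and was lower at 5 than at 1 g/L when fitted without 1 g/L replicate 1 (-0.74, adjusted p = 0.0426) or 5 g/L replicate 1 (-0.83, adjusted p = 0.0129).

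In the proline branch PRO1, the gamma-glutamyl kinase, rose. It read 61.6, 66.9 and 81.6 in 0.75 g/L, 76.2, 125 and 93.4 in 1 g/L, 136, 113 and 107 in 1.5 g/L, 102, 117 and 151 in 3 g/L, and 147, 110 and 134 in 5 g/L. The 0.75 g/L arrays overlapped with those at 1 g/L alone, and the slope was 0.28 ± 0.08 (adjusted p = 0.0171). PRO3, the pyrroline-5-carboxylate reductase, read 680, 681 and 668 in 0.75 g/L, 770, 769 and 959 in 1 g/L, 745, 802 and 658 in 1.5 g/L, 475, 749 and 669 in 3 g/L, and 614, 653 and 477 in 5 g/L. Its 5 g/L arrays lay below those at 1.5 g/L and lower, with a slope of -0.14 ± 0.07 that did not pass (adjusted p = 0.132) but did under 6 of 33 alternatives. PRO2, the gamma-glutamyl phosphate reductase, had a slope of 0.12 ± 0.06.

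Between 0.75 and 1 g/L, 12 members were higher and 3 lower, which are shares of 22.2% and 5.56%, against 22.1% and 15.3% of all probe sets (37.3% in either direction), so the share of higher members was that of the background. The higher ones were ILV5, LEU1, LEU9, BAT1, LYS1, LYS4, LYS9, LYS12, ASN1, THR1, SER2 and SER33, and the lower ones TRP3, HOM3 and SER3. The median difference of the members was 0.18, against 0.11 over all probe sets, and turned to -0.03 against -0.09 after median scaling. There 6 members were higher and TRP3, HOM2, HOM3, SER3 and GLN1 lower, with 1073 of all probe sets higher and 1558 lower. All 3 arrays at 1 g/L exceeded all at 0.75 g/L for 20 members and lay below them for 6, against 29.4% and 20.9% of all probe sets. Leaving out single arrays ended the calls of LEU1 (6 arrays), THR1 (5), LYS4 (0.75 g/L replicates 1 and 2 and 1 g/L replicate 2), TRP3, HOM3 and SER33. With session as a block LEU9, SER2 and SER3 alone passed, and with station as a block 8 members. At this step the median of the lysine genes was 0.57 and that of the histidine genes -0.26, a difference between branches that was not tested.

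From 1 to 1.5 g/L 1 member passed, HIS5 (0.96 ± 0.19, adjusted p = 0.0397), with 0.403% of all probe sets called, 0.388% higher and 0.0144% lower. The second probe set of HIS3, which is not in that count, also passed (1.02 ± 0.15, adjusted p = 0.00558), while the first did not. The count was 0 without 0.75 g/L replicate 1, 1 g/L replicate 2 or 3, any 1.5 g/L array, 3 g/L replicate 2 or 3, or 5 g/L replicate 2, and 3 without 3 g/L replicate 1. The median difference was 0.14, against -0.01 over all probe sets. An unadjusted p under 0.05 was found for 10 of 54 members and for 769 of all 6956 probe sets. From 1.5 to 3 g/L the members ARO4, ILV1 and LEU4 passed, with 4.1% of all probe sets called (2.56% higher and 1.54% lower). Here 19 of 54 members had an unadjusted p under 0.05, as did 1351 of all 6956 probe sets. The members' median was 0.30 and that of all probe sets -0.02, with 45 of 54 differences positive. No member passed there with run, session or station as a block, nor without replicate 1 or 3 at 1.5 g/L or replicate 2 or 3 at 3 g/L, and 5 passed without 1 g/L replicate 3.

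From 3 to 5 g/L 0 members passed limma's test, in the main setting and in each alternative tried, with 0.992% of all probe sets called (0.877% higher and 0.115% lower). An unadjusted p under 0.05 was found for 3 of 54 members and for 650 of all 6956 probe sets. The median difference of the members was 0.00 after rounding, with 27 differences on either side of 0. Within run B, where 2 arrays at 5 g/L met 2 at 3 g/L, 0 members passed (0.216% of all probe sets) and the median was -0.06.

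**Figure D4:**
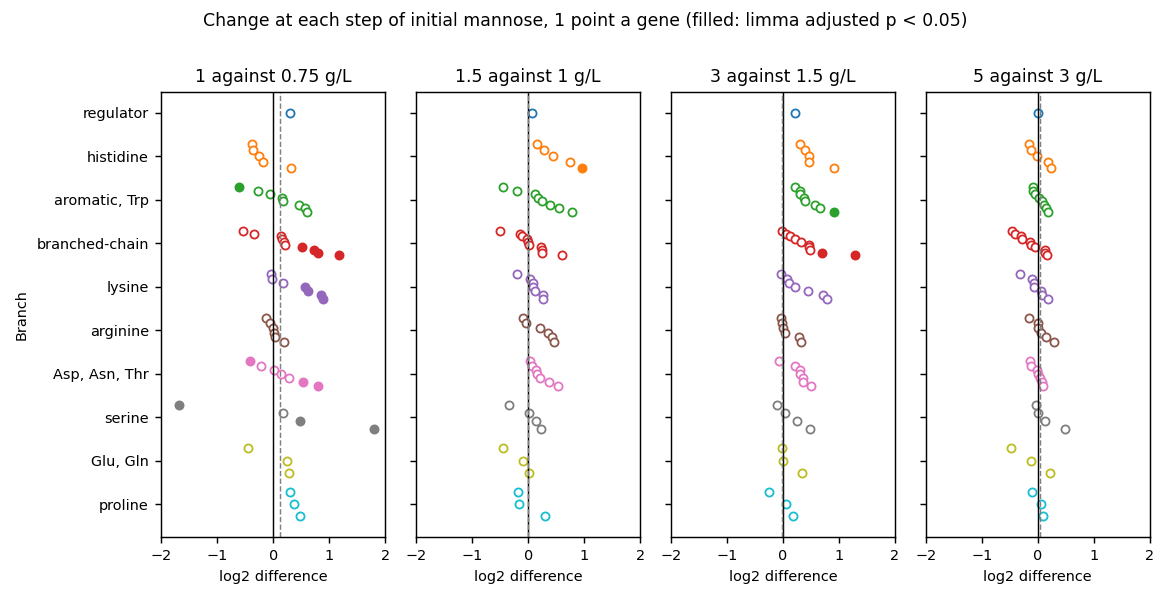
Log2 difference of each gene between neighbouring concentrations, by branch, with genes that passed filled. The dashed line is the median of all probe sets. Lysine genes reach 0.89 in the first step, all histidine genes lie above 0 in the steps between 1 and 3 g/L, and points lie on both sides of 0 in the last.

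Between the ends of the series, 35 members were higher and SER3 lower at 5 than at 0.75 g/L, with 35.6% of all probe sets called, 22.2% higher and 13.3% lower. The median difference was 0.66, against 0.13 over all probe sets. All 3 arrays at 5 g/L exceeded all 3 at 0.75 g/L for 42 members and lay below them for 3, against 31.1% and 20% of all probe sets. After median scaling 18 members were higher and SER3, GLN1 and PRO3 lower. Of the 2637 probe sets called after this scaling, 37.9% were higher, against 62.5% of the calls without it. With fluidics run as a fixed block 8 members passed, GCN4, HIS3, HIS5, TRP3, LEU9, LYS12, ARG7 and ASN1. SER3 missed the threshold without 0.75 g/L replicate 1, 0.75 g/L replicate 2 or 5 g/L replicate 3 (adjusted p = 0.0654, 0.0905 and 0.0928).

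Between 5 and 1 g/L, 22 members were higher and 0 lower, with 23.9% of all probe sets called, 13.5% higher and 10.4% lower. The 0.75 g/L arrays do not enter this difference of means, but they do enter the estimate of its spread. All 3 arrays at 5 g/L exceeded all at 1 g/L for 27 members and lay below them for 3, against 19.6% and 19.7% of all probe sets. This comparison shares its arrays with those above. The median was 0.43, against -0.02 over all probe sets. HIS5, HIS7 and TRP3 differed most, by 3.04-fold, 3.00-fold and 2.56-fold, followed by ILV2 (2.39-fold), ARO4 (2.30-fold), LYS2 (2.13-fold) and HIS3 (2.04-fold). By branch the medians were 1.03 for histidine, 0.65 for aromatic and tryptophan genes, 0.55 for aspartate, asparagine and threonine, 0.42 for lysine and for arginine, 0.32 for serine, 0.29 for branched-chain genes, 0.08 for proline and -0.13 for glutamate and glutamine. After median scaling 16 members were higher and GDH1 and PRO3 lower, with 821 of all probe sets higher and 939 lower. With session as a block 11 members passed.

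Arrays of the same fluidics run could be compared for a few pairs of concentrations, 2 of them with a single array on the higher side, whose spread was not measured and was taken to be that of the other groups. In run A, 3 g/L replicate 1 set against the 0.75 g/L arrays had 23 members higher and SER3 lower, with 27.5% of all probe sets called. The median of the members was 0.63 and that of all probe sets 0.08, and ASN1 (1.51 ± 0.25), HIS5 (1.33 ± 0.26) and SER2 (1.39 ± 0.35) were among those that passed. In run C, 5 g/L replicate 3 against the 1.5 g/L arrays gave 0 members that passed, with 3.62% of all probe sets called. There 42 of 54 differences were positive, with a median of 0.38 against -0.04 over all probe sets.

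Within an array, the ratio of paralogs shows whether 2 genes of the same reaction changed unequally. For each of 6 pairs the slope of the log2 ratio on log2 mannose was tested by permuting the 15 arrays 100000 times, two-sided, with adjustment over the 6 pairs. No pair passed. ASN1 against ASN2 came closest, at 0.21 ± 0.09 per doubling (permutation p = 0.0294, adjusted p = 0.177), and without 1 g/L replicate 3 it passed at 0.26 (permutation test, adjusted p = 0.0106). SER3 against SER33 had a slope of -0.21 ± 0.21 (permutation test, adjusted p = 0.397), while the mean log2 ratio went from 0.59 ± 0.18 (SD) at 0.75 g/L to -1.58 ± 0.05 at 1 g/L and back to -0.75 ± 0.11 at 5 g/L. Without the 0.75 g/L arrays that slope was 0.36 (permutation test, adjusted p = 0.00066). LEU4 against LEU9 went from 5.47 ± 0.05 at 0.75 g/L to 3.76 ± 0.18 in 1 g/L and 4.04 ± 0.56 in 5 g/L, with a slope of -0.20 (adjusted p = 0.397 by permutation). BAT1 against BAT2 had a slope of 0.15, ARO3 against ARO4 -0.17 and LYS20 against LYS21 -0.04.

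**Figure D5:**
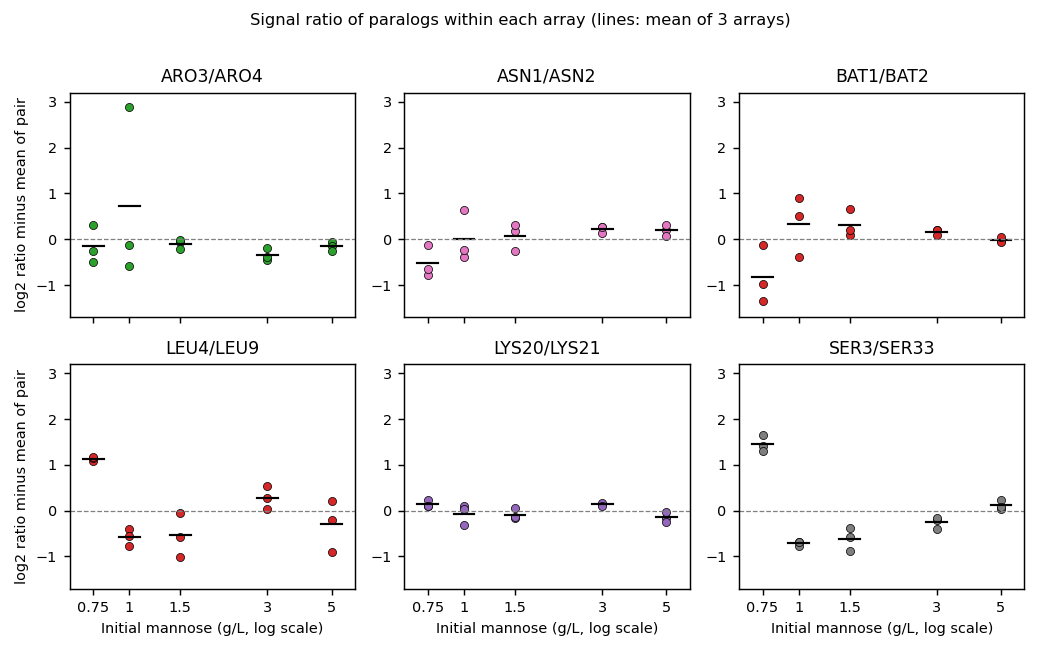
Log2 ratio of the signals of 6 paralog pairs on each array, minus the mean of the pair, against initial mannose on a log scale, with group means as lines. The ratios of SER3 to SER33 and of LEU4 to LEU9 are highest on the 0.75 g/L arrays, and 1 array in 1 g/L stands far above the others for ARO3 to ARO4.

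Other genes of the same pathways were read from a list of 36, of which 34 matched a probe set. In the trend 15 of 34 rose (44.1%) and LEU2 fell, with a median slope of 0.19. Of all probe sets tested, 14.3% rose and 9.34% fell, with a median slope of 0.02. Among further enzymes of the branches, 7 of 12 rose and 1 fell. ARG2, the acetylglutamate synthase that opens the arginine branch, rose by 0.51 ± 0.07 per doubling, from 111 ± 16.7 to 261 ± 19.5. ORT1, the mitochondrial ornithine carrier, rose by 0.50 ± 0.09. ARO8, an aromatic aminotransferase, and TYR1, the prephenate dehydrogenase of tyrosine synthesis, rose by 0.44 ± 0.06 and 0.35 ± 0.06. LEU2, the isopropylmalate dehydrogenase between LEU1 and BAT1 in the leucine pathway, fell by 0.19 ± 0.05 on the log2 scale (adjusted p = 0.0107). Its mean went from 1709 ± 60.3 at 0.75 g/L to 1216 ± 122 at 5 g/L. LEU2 had 3 probe sets, and these values are of the one with the highest mean signal, with the others not given here. Whether the strain carries its native LEU2 was not examined.

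For alanine, aspartate, glycine and glutamate, 3 of 9 enzymes (33.3%) rose, against 14.3% of all probe sets: GLY1, AAT2 and ALT2. GLY1, the threonine aldolase that makes glycine, averaged 155 ± 17.1 at 0.75 g/L, 150 ± 12.2 in 1 g/L and 430 ± 38.7 in 5 g/L, with a slope of 0.61 ± 0.06 (adjusted p = 5.08e-06). Of the regulators, 5 of 13 (38.5%) rose, against the same 14.3%: BAS1, ARG80, LEU3, URE2 and GLN3. BAS1, an activator of histidine and purine genes, rose from 4.53 ± 2.97, under the background level of 13.5, to 42.8 ± 4.29, so its slope of 1.13 ± 0.18 rests partly on values at background. The same limit holds for GLN3 and ALT2, which averaged 11.2 ± 0.6 and 13.5 ± 5.05 at 0.75 g/L. ARG80, a subunit of the arginine regulatory complex, rose by 0.55 ± 0.08 and LEU3, the activator of leucine genes, by 0.41 ± 0.08. SHM2, a serine hydroxymethyltransferase that makes glycine, was named after its values were seen. It averaged 99.9 ± 11.4 at 0.75 g/L and 551 ± 31.2 at 1 g/L, a log2 difference of 2.47 ± 0.13 (adjusted p = 1.87e-08), and its trend did not pass. GCN2, the kinase upstream of Gcn4, had a slope of 0.09 ± 0.07 that did not pass.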

How the data were processed

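Per the labels, the series holds 15 arrays (Affymetrix YG_S98), 3 for each of 5 initial mannose concentrations. The authors deposited linear intensity values of 9335 probe sets, by a calculation not given in the sources used. Values below the 10th percentile (1.5) were set to it and log2 transformed, 60 control probe sets and those below the 25th percentile of mean log2 were left out, and 6956 were tested with limma 3.58.1 in R 4.3.3 (lmFit, eBayes, Benjamini-Hochberg over all of them, threshold 0.05). All 54 members passed the filter. Each limma fit used all 15 arrays, which shared 1 estimate of the spread, except in the alternatives that left arrays out. Errors are SE beside log2 changes and SD beside signals. Paralog ratios were tested by permutation with NumPy 2.4.6, and SciPy 1.17.1 gave the ranks for their quantile normalization alternative.

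The members and lists were chosen with earlier results of these data known. Values on every array are given for GCN4, up to 2 members of each branch ranked first by adjusted p of the trend, and both genes of a paralog pair; of the other genes, up to 4 per list that passed are named, with GLN3, the other regulator that passed, LEU2, which fell, and GCN2 and SHM2, chosen after their values were seen, beside them. Replicate numbers were not used to pair the arrays: between same-numbered arrays, 4 of 30 correlations were above 0.1. Arrays with different numbers were not correlated for comparison, so this does not settle whether the numbers mark pairs. Fits were first tested on simulated data. Promoter and protein sequences were not analysed here.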

Additional observations from a re-analysis of the deposited data

How the results depend on the processing

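Of 34 alternatives, including one added after seeing the data (the trend without the 1 g/L arrays, 34 members called against 32), most left the counts within 1.5 times. With fluidics run as a fixed block the counts were 16 in the trend, 0 for 3 against 1.5 g/L and 8 for 5 against 0.75 g/L. Session as a block gave 3 for 1 against 0.75 g/L, 0 for 3 against 1.5 g/L and 11 for 5 against 1 g/L. Station as a block gave 8, 0 and 0 for the first 3 steps. Calls over all probe sets under these blocks are not given here. For 1.5 against 1 g/L the count was 2 after quantile normalization, 0 after median scaling, 3 with the filter at the 50th percentile, 4 with a variance trend and robust fit, and 0 with the replicate block. The replicate block left 29 members called in the trend. Median scaling gave 21 for 5 against 0.75 g/L. Without the arrays with incomplete fluidics records, 1.5 against 1 g/L and 3 against 1.5 g/L had 0 each. Of the medians of all probe sets, the one for 5 against 0.75 g/L was 0.13, against -0.02 with quantile normalization and -0.15 with median scaling.

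Leaving out each array in turn gave 26 to 32 members in the trend, 32 to 39 in the F-test, 11 to 15 for 1 against 0.75 g/L, 0 to 3 for 1.5 against 1 g/L, 0 to 5 for 3 against 1.5 g/L, 31 to 39 for 5 against 0.75 g/L and 16 to 24 for 5 against 1 g/L. Calls over all probe sets in these fits are not given here. For the ASN1 to ASN2 ratio the slope was 0.16 to 0.26. For 3 against 1.5 g/L the count was 0 without replicates 1 or 3 at 1.5 g/L or replicates 2 or 3 at 3 g/L, and 5 without 1 g/L replicate 3.

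The slope of SER3, -0.06 and not called, became 0.39 without the arrays with incomplete records and 0.40 without the 0.75 g/L arrays, and that of the SER3 to SER33 ratio 0.36 in the latter. The causes were not tested, except that these 2 settings have no 0.75 g/L arrays. Run D holds only the 1 g/L arrays, so comparisons with 1 g/L and the F-test had no value with run as a fixed block. The 3 arrays of a group limit the precision, and probe sets near the background level of 13.5 have uncertain folds.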
